A study of Mus musculus with 48 samples.

Results

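Fatty acid oxidation and ketone body metabolism were followed through 36 mouse genes, chosen by symbol for their known roles, with earlier results of these data known. A probe with the gene's symbol was present for 34 of them, among 16593 genes named on the Illumina mouse RefSeq BeadChips, of which 30 could be tested in liver, 26 in gastrocnemius muscle and 29 in epididymal white adipose tissue. Of all genes, 9019, 9535 and 10506 were tested in these tissues. Members tested in all 3 tissues numbered 24. Acsl1 and Hadha had no probe of their symbol, and the probes of Cpt1a, Fabp1 and Vnn1 were not detected on 3 arrays of any tissue, so these 5 members are not described further. The arrays, 48 in all, came from male mice of the C57Bl/6J background aged 3 months, and the design sets an excess of FGF21, a hormone that liver releases in fasting, beside 2 forms of food shortage. Fasted mice were wild-type and had no food for 24 hr (3 arrays per tissue). Calorically restricted (CR) mice were wild-type and were restricted for 2 weeks, by 40% according to the labels (4 arrays per tissue), whereas the methods describe food equal to that percentage of the usual intake. Both groups were set against wild-type mice fed ad libitum (AL, 3 arrays per tissue). FGF21-Tg mice, fed ad libitum, carried an FGF21 transgene driven in hepatocytes by the ApoE promoter and were set against wild-type (WT) mice fed ad libitum (3 arrays per tissue for each). An array held cRNA of 1 to 3 mice, so the replicates are arrays. CR mice ate once a day and were killed before the next meal, so that the restriction itself cannot be told apart from hours without food.

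Fatty acids are activated to acyl-CoA, carried into mitochondria as carnitine esters and shortened there by repeated cycles of beta-oxidation, while peroxisomes shorten very long chains. Acyl-CoA thioesterases release the free acid again, and in liver much of the acetyl-CoA that oxidation yields leaves as ketone bodies, which muscle and other organs take up and burn. Many of these genes are targets of the nuclear receptor PPARalpha (Ppara), which is activated by fatty acids and is best known for the response of liver to fasting.

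The 6 BeadChips did not all match their labels. On 12 of the 16 arrays of the second and the third chip in sample order, the brightest of the transcripts Adipoq (adipocytes), Ckm (muscle) and Apoa1 (hepatocytes) belonged to another tissue than the label, against 0 of the 32 arrays of the other chips. The labels of these chips were therefore exchanged position by position, after which 0 arrays stood against their label. Apoa1 then lay between 15.86 and 16.03 in liver, Ckm between 15.49 and 16.02 in muscle and Adipoq between 15.86 and 16.03 in adipose tissue (log2 signal). These transcripts check the tissue and not the diet of an exchanged array. AL muscle, AL and fasted adipose tissue, CR adipose tissue, 1 fasted muscle array and 2 CR liver arrays lay on these chips, so that without them the comparisons of muscle and adipose tissue with AL mice cannot be made. The other comparisons are given without them as well. Values are log2 signals after background correction and quantile normalization among the 16 arrays of a tissue, and a difference on this scale is the logarithm of a fold change. The median raw signal of an array was 182 to 265 and 42 to 56.3% of its probes were detected. A gene is said to have risen or fallen where limma gave a Benjamini-Hochberg adjusted p under 0.10 over all genes tested in the tissue. Fgf21, the transgene, had a signal of 15.94, 15.94 and 15.76 in FGF21-Tg liver, against 7.98, 7.98 and 9.37 in WT liver (normalized over all 48 arrays). It was also higher in FGF21-Tg adipose tissue, at 14.43, 13.12 and 14.02 against 5.48, 5.67 and 5.60 in WT, and in FGF21-Tg muscle, at 8.31, 7.48 and 7.68 against 5.46, 5.51 and 5.79 in WT, and the WT arrays of these 2 tissues did not detect it. Each tissue is a mixture of cells, in which fewer cells of a type and less RNA per cell cannot be told apart.

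Acyl-CoA thioesterases and the kinase Pdk4 were among the members with large changes in these data. The peroxisomal gene Ehhadh, whose promoter is not shown, rose more than Acot4 with fasting in liver and in adipose tissue. The thioesterase genes Acot2 (83987861 to 83993877), Acot1 (84009502 to 84017670), Acot4 (84037254 to 84044723) and Acot3 (84052144 to 84060400) follow each other on the plus strand of mouse chromosome 12. Their promoters and that of Pdk4 are shown, from RefSeq on build GRCm38.p6, because these genes moved in several tissues at once. A window runs 5′ to 3′ along the strand of its gene, 250 bases before an annotated start of transcription and 50 after it, and 31 of the 36 members had one. The window of Acot4 surrounds a start that lies inside the gene, downstream of the first base given above, so it is not the region before that base. Windows lie at chr12:83987611-83987910 (Acot2), chr12:84009252-84009551 (Acot1), chr12:84038129-84038428 (Acot4), chr12:84051894-84052193 (Acot3), all on the plus strand, and chr6:5496229-5496528 (Pdk4, minus strand). Capitals mark the core sequence AGGTCA of nuclear receptor sites, here on the opposite strand as TGACCT.
Acot2: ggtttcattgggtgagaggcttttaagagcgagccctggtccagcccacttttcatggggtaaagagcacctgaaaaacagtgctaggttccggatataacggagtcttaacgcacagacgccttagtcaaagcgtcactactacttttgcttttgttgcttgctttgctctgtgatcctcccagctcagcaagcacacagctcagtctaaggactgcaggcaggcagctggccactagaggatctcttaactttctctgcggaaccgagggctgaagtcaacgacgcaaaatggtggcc
Acot1: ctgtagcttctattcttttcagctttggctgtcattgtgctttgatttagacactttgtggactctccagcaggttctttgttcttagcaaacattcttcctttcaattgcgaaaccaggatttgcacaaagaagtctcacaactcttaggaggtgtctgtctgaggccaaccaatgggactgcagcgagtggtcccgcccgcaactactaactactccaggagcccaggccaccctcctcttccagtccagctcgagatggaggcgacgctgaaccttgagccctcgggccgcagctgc
Acot4: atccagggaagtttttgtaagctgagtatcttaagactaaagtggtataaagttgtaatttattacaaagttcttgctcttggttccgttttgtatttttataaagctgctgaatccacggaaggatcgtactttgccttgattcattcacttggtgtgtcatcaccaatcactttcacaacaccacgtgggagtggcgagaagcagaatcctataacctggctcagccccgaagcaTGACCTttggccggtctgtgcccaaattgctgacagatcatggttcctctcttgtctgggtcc
Acot3: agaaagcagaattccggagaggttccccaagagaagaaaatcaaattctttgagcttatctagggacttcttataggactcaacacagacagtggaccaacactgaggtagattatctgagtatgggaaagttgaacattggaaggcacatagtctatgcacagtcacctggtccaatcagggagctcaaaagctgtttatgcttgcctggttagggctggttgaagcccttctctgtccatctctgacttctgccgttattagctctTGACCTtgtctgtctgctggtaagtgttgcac
Pdk4: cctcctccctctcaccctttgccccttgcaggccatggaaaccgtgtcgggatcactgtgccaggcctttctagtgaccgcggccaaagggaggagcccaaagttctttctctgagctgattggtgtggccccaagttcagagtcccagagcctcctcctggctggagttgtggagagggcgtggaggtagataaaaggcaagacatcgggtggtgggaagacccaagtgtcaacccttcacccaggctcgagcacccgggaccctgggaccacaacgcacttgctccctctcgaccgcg
The core sequence, searched on both strands, occurred in 16.3% of all 32851 windows of this length (5340). It occurred in a window of 7 of the 31 members (22.6%), Acadm, Acadvl, Acot3, Acot4, Cpt1a, Fabp1 and Ucp3. Members were counted by gene, with a match in any window of the gene, so their share is not the same measure as the share of windows. In Acot4 it begins at base 238 of the window and in Acot3 at base 269. The paired arrangement AGGNCANAGGNCA, in which PPARalpha sites are usually written and which contains shorter matches of the same kind, occurred in 0.381% of all windows. Counted by gene, it occurred in 1 of 31 members (3.23%), Fabp1. The windows of Acot1, Acot2 and Pdk4 hold neither run of letters. The 4 thioesterases are close relatives in sequence, and how far their probes bind one another's transcripts was not tested.

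In control mice most members differed between tissues, as did most of all genes. Levels were compared over the 6 control arrays of a tissue (AL and WT) after normalization over all 48 arrays. Of 31 members, 16 were higher and 9 lower in liver than in muscle, where 72.7% of all 11772 genes differed (33.2% higher, 39.5% lower), and 16 were higher and 8 lower in liver than in adipose tissue (68.7% of all genes, 29.5% higher and 39.2% lower). Between muscle and adipose tissue 14 were higher and 14 lower in muscle (70.7% of all genes, 31.5% higher and 39.2% lower).
All 6 peroxisomal members tested were higher in liver than in muscle, with a median difference of 2.91 (2.55 with undetected genes set at their bound), and 4 of 6 were higher than in adipose tissue with 0 lower (median 1.70). Acaa1b, a peroxisomal thiolase, averaged 14.77 ± 0.19 in liver (SD, n = 6) and 11.09 ± 0.27 in adipose tissue, and was detected on 0 of 6 muscle arrays, a level at least 450-fold higher in liver than in muscle. Ehhadh, the bifunctional enzyme of the pathway, averaged 11.19 ± 0.35 in liver, 8.5 ± 0.51 in adipose tissue and 6.85 ± 0.17 in muscle. Decr2, a dienoyl-CoA reductase, was at least 10.6-fold higher in liver than in muscle.
The mitochondrial members, which join genes of carnitine entry, Crat and beta-oxidation, were spread over the tissues instead. Of 16 tested, 5 were higher and 5 lower in liver than in muscle (median 0.12), and 7 were higher and 4 lower in liver than in adipose tissue (median 0.13). Cpt1b, the muscle form of the enzyme that makes carnitine esters, averaged 7.03 ± 0.15 in liver, 13.65 ± 0.14 in muscle and 6.72 ± 0.76 in adipose tissue (SD, n = 6 each). Liver and adipose tissue did not differ in Cpt1b beyond their spread (difference 0.31, adjusted p = 0.32). Crat, carnitine acetyltransferase, was lower in liver than in muscle (-4.08 on the log2 scale) and higher in muscle than in adipose tissue (1.06). Acaa2, the thiolase of mitochondrial beta-oxidation, ran the other way, with 13.23 ± 0.21 in liver, 11 ± 0.27 in muscle and 9.87 ± 0.51 in adipose tissue.
The ketone body genes divided by step. Bdh1, the dehydrogenase that forms hydroxybutyrate, averaged 12.06 ± 0.26 in liver and 9.43 ± 0.45 in muscle and was detected on 0 of 6 adipose arrays, at least 82.4-fold higher in liver than in adipose tissue. Oxct1, the transferase with which tissues other than liver begin to use ketone bodies, averaged 6.57 ± 0.44 in liver, 12.61 ± 0.17 in muscle and 12.04 ± 0.35 in adipose tissue. Its level in liver was lower than in muscle (-6.04 on the log2 scale) and than in adipose tissue (-5.47). Pdk4, the kinase that shuts off pyruvate dehydrogenase, was highest in muscle at 12.69 ± 0.37, then adipose tissue at 9.27 ± 0.93 and liver at 7.93 ± 0.91. Its liver controls spanned 6.88 to 8.92, and normalized within liver every WT array lay above every AL array. Ucp3, a mitochondrial carrier of muscle, was detected on 0 of 6 liver arrays and was at least 5.29-fold lower in liver than in muscle. Ppara averaged 7.40 ± 0.61 in liver and was detected on 0 of 6 control arrays in each of the other tissues. Of the thioesterases, Acot1 averaged 10.70 ± 0.62 in liver, 6.66 ± 0.70 in muscle and 6.50 ± 1.36 in adipose tissue, and muscle and adipose tissue did not differ beyond their spread (0.16, adjusted p = 0.72). Acot3 was detected on 6 of 6 control arrays in liver and on 1 of 6 in each of the other tissues.

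**Figure D1:**
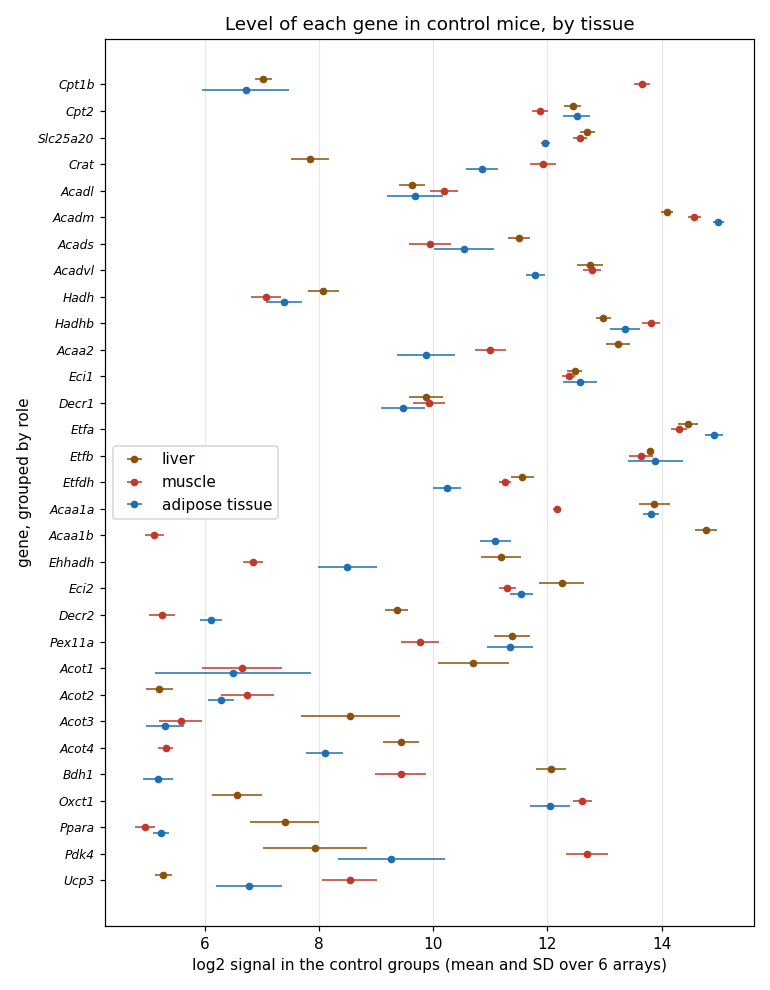
Level of each gene in the control mice of each tissue, as the mean (point) and SD (bar) of log2 signal over 6 arrays, with genes grouped by role from top to bottom. Cpt1b, Oxct1 and Pdk4 stand highest in muscle, and Acaa1b, Ehhadh, Decr2 and Bdh1 in liver.

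In fasted liver 22 of 30 members rose and 0 fell, where 18.1% of all genes changed (8.44% up, 9.7% down). The median over members was 0.90, against 0.00 over all genes. Acot1, a thioesterase of the cytosol, read 13.43, 13.67 and 14 in fasted liver, against 9.62, 10.06 and 10.47 in AL liver. Every fasted array lay above every AL array, a 12.6-fold rise (log2 difference 3.65, standard error 0.51, adjusted p = 0.00013). Acot3, a thioesterase of peroxisomes, read 11.27, 11.94 and 11.11 in fasted liver and 7.48, 8.31 and 9.29 in AL liver (8.45-fold, adjusted p = 0.0027), so that its AL arrays were spread more widely than its fasted ones. Acot4, also peroxisomal, rose 2.68-fold, with 10.50, 10.64 and 10.70 against 8.86, 9.17 and 9.55. Acot2, the mitochondrial form, had a difference of 0.76 that did not pass (adjusted p = 0.11), and in AL liver it was detected on 1 of 3 arrays. A second Acot2 probe, brighter over the 48 arrays, read 7.10, 7.84 and 7.39 in fasted liver and was not detected on any AL liver array.
Among peroxisomal members all 6 rose with fasting in liver. Ehhadh read 13.44, 13.88 and 13.51 in fasted liver, against 10.97, 11.08 and 11.21 in AL liver, a 5.75-fold rise in which both groups were tight (adjusted p = 1.2e-05). Pex11a, which promotes the division of peroxisomes, had 12.12, 12.89 and 12.62 in fasted liver and 11.05, 11.46 and 10.98 in AL liver (2.60-fold). The other 4 rose less, by 0.65 (Acaa1b) to 1.03 (Acaa1a) on the log2 scale.
All 4 tested genes that were grouped here with carnitine entry rose, which leaves out Cpt1a, the liver form of the enzyme that makes carnitine esters, and Acsl1. The group counts Crat, an acetyltransferase, with the entry genes Cpt1b, Cpt2 and Slc25a20. Crat read 9.3, 9.92 and 9.57 in fasted liver, against 7.29, 7.53 and 7.19 in AL liver, and rose 4.79-fold. Cpt1b read 8.48, 8.87 and 8.79, against 6.64, 6.81 and 6.52, and rose 4.17-fold. Cpt2, of the inner membrane, and Slc25a20, the carnitine carrier, rose 2.00-fold and 2.21-fold. Of 12 genes of beta-oxidation 8 rose, from 0.63 (Etfb, an electron carrier subunit) to 1.29 (Etfdh, its dehydrogenase) on the log2 scale, and Acads, Acaa2, Hadh and Etfa did not pass, with differences of 0.18, 0.35, 0.23 and 0.20.
Bdh1 and Oxct1, the ketone genes tested in the set, did not rise, whereas Acat1, a thiolase of ketone body synthesis outside the set, did (given below). Bdh1 read 11.93, 11.91 and 11.91 in fasted liver, against 11.57, 12.10 and 11.99 in AL liver (difference 0.03, standard error 0.26), and the fasted arrays lay within the range of the AL arrays. Oxct1 was not detected on any fasted liver array. Ppara itself read 7.45, 7.39 and 8.09 in fasted liver and 7.72, 7.5 and 6.92 in AL liver, groups that overlapped (difference 0.27, adjusted p = 0.68). Pdk4 rose 3.35-fold, with 8.28, 8.16 and 9.22 against 6.58, 6.94 and 6.91. The WT livers of the FGF21-Tg comparison, also fed ad libitum, read 8.35, 8.65 and 8.42, within the range of the fasted arrays. The Pdk4 rise thus holds against AL liver and not against WT liver, which lay on other chips. All AL and fasted liver arrays shared 1 chip, and without the second and the third chip the count of called members was again 22. The 3 measured erythroid markers summed to 20000 to 25100 in fasted liver, against 30600 to 36800 in AL liver, and the 3 measured macrophage markers to 1430 to 2240 in fasted liver, against 2390 to 3430 in AL liver. Their part in the member changes was not tested.

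CR changed the same liver genes in 2 directions. Of 30 members 10 rose and 6 fell, where 35.5% of all genes changed (17.6% up, 17.9% down), and the median over members was 0.33 against 0.01 over all genes. Thioesterases and Pdk4 rose. Acot3 read 11.69, 11.91, 11.43 and 10.27 in CR liver, against 7.48, 8.31 and 9.29 in AL liver (7.78-fold, adjusted p = 0.0010), a clear separation although 1 CR array was lower than the other 3. Acot1 had 11.89, 11.98, 11.35 and 10.86 in CR liver and 9.62, 10.06 and 10.47 in AL liver (2.78-fold, adjusted p = 0.028), and Acot1 no longer passed without AL replicate 1 (difference 1.26). The WT livers, at 10.81, 10.59 and 11.57 for Acot1, overlapped the CR arrays. Pdk4 read 8.99, 8.38, 9.10 and 9.18 in CR liver, against 6.58, 6.94 and 6.91 in AL liver, and rose 4.29-fold (adjusted p = 1.8e-05). The WT livers, at 8.35, 8.65 and 8.42 for Pdk4, overlapped the CR arrays as well. Cpt1b rose 2.51-fold, with 8.12, 7.84, 8.26 and 7.72 in CR liver and 6.64, 6.81 and 6.52 in AL liver. Smaller rises were those of Acot4 (0.87), Acadl (0.74), Etfdh (0.67), Acadvl (0.58), Slc25a20 (0.37) and Acadm (0.35), of which Acadl, Acadvl and Acadm are the acyl-CoA dehydrogenases for long, very long and medium chains. A second detected probe of Etfdh had the opposite sign.
The members that fell in CR liver included genes that fasting raised. Bdh1 read 10.27, 10.25, 10.24 and 9.41 in CR liver, against 11.57, 12.10 and 11.99 in AL liver, and fell to 0.278 of the AL level (log2 difference -1.84, standard error 0.24, adjusted p = 4.3e-05). All 4 CR arrays were below all AL arrays, and 1 CR array was lower than the rest. Decr1, the mitochondrial dienoyl-CoA reductase needed for unsaturated fatty acids, read 8.48, 8.27, 7.83 and 8.19 in CR liver and 9.43, 9.82 and 9.42 in AL liver (0.388 of the AL level). Acaa1b (-0.84), Acaa1a (-0.52), Eci1 (-0.43) and Cpt2 (-0.42) also fell. Oxct1 had 5.93, 5.95, 6.16 and 5.78 in CR liver and 5.67, 6.56 and 6.15 in AL liver, which overlapped, and Ppara had 6.65, 7.25, 6.07 and 6.82 against 7.72, 7.5 and 6.92, with a difference of -0.68 that did not pass (adjusted p = 0.12).
Markers of other cell types moved with this comparison. The summed signal of the 3 of 4 listed erythroid markers that were measured was 10600 to 24600 in CR liver, against 30600 to 36800 in AL liver. The 2 measured genes of the brown adipocyte list, of which Elovl3 is also a gene of liver, summed to 64.8 to 77.2 in CR liver, against 360 to 671 in AL liver. The 7 measured adipocyte markers summed to 1050 to 1710 in CR liver, against 2320 to 2630 in AL liver, and the 3 measured macrophage markers to 1380 to 1660 in CR liver, against 2390 to 3430 in AL liver. The part of these markers in the member changes was not tested. Without the second and the third chip, which leaves 2 CR arrays, 13 members passed (9 up, 4 down), and on the first chip alone all 16 differences kept their direction.

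In FGF21-Tg liver 2 of 30 members rose and 3 fell, where 5.63% of all genes changed (3.27% up, 2.36% down), and the median over members was -0.13. The 2 that rose were peroxisomal thioesterases. Acot3 read 10.08, 12.26 and 10.69 in FGF21-Tg liver, against 7.20, 8.0 and 9.36 in WT liver, a 7.09-fold rise (log2 difference 2.83, standard error 0.61, adjusted p = 0.019) with wide spread in both groups and no overlap. Acot4 read 10.28, 10.45 and 10.21 in FGF21-Tg liver and 8.85, 9.07 and 9.62 in WT liver (2.19-fold, adjusted p = 0.012). Acot1, the neighbour of these genes, had 12.09, 11.52 and 9.41 in FGF21-Tg liver and 10.81, 10.59 and 11.57 in WT liver, which overlapped (difference 0.02, adjusted p = 0.99).
The 3 that fell are enzymes of mitochondrial beta-oxidation. Decr1 read 8.54, 8.92 and 8.56 in FGF21-Tg liver, against 9.31, 10.14 and 9.78 in WT liver (0.475 of the WT level, adjusted p = 0.010). Acads, the dehydrogenase for short chains, read 10.57, 11.13 and 10.70 in FGF21-Tg liver and 11.37, 11.68 and 11.58 in WT liver (0.596 of the WT level). Acaa2 had 12.77, 13.08 and 13.07 against 13.51, 13.45 and 13.40 (0.717 of the WT level, adjusted p = 0.092). Of these 5 changes, that of Acaa2 lost its call without some single arrays, with median scaling and with the replicate number in the model.
Pdk4, the ketone body genes, Ppara and Cpt1b did not pass. Pdk4 had 9.04, 8.59 and 8.30 in FGF21-Tg liver and 8.35, 8.65 and 8.42 in WT liver, Bdh1 had 11.81, 12.38 and 11.37 against 11.84, 12.37 and 12.06, and Ppara had 6.21, 6.28 and 5.92 against 6.10, 6.92 and 7.5. Cpt1b had 6.68, 7.0 and 5.98 against 6.93, 6.74 and 6.66, and Oxct1 had 6.27, 6.40 and 6.37 against 6.26, 6.46 and 6.74. In each of these pairs the groups overlapped. The fasting and the transgene effect in liver share no arrays and were compared directly. With its sign kept, the fasting effect was higher for 19 of 30 members and lower for 0. Of all genes 12.4% differed (5.5% up, 6.9% down). The largest were those of Acot1 (3.64), Crat (2.41), Cpt1b (2.28) and Ehhadh (2.08). Those of Acot3 (0.25, standard error 0.86) and Acot4 (0.29, standard error 0.32) did not pass. FGF21-Tg liver lay on the fifth chip with 1 of the 3 WT arrays. Within that chip all 5 differences kept their direction, at 1.65 for Acot3, 0.69 for Acot4, -1.11 for Decr1, -0.78 for Acads and -0.43 for Acaa2, and 0 passed with the chip in the model. With the log2 values as the authors normalized them Acot3 did not pass (1.41). The 7 measured adipocyte markers summed to 3770 to 9020 in FGF21-Tg liver, against 2500 to 3240 in WT liver, and the 2 measured genes of the brown adipocyte list, of which Elovl3 is also a gene of liver, summed to 63.9 to 68.7 in FGF21-Tg liver, against 1380 to 1990 in WT liver. Their part in these changes was not tested. Without the second and the third chip 4 members passed (2 up, 2 down).

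In fasted muscle 7 of 26 members rose and 1 fell, where 41.1% of all genes changed (19.7% up, 21.4% down), and the median over members was 0.13. Acot1 read 11.82, 12.10 and 12.07 in fasted muscle, against 6.53, 7.09 and 7.22 in AL muscle, a 33.0-fold rise (log2 difference 5.05, standard error 0.26, adjusted p = 1.3e-09) that was many times the spread within either group. Acot2 read 10.12, 9.74 and 9.73 in fasted muscle and 5.98, 6.17 and 6.63 in AL muscle (12.1-fold, adjusted p = 2.6e-08). Pdk4 read 15.85, 15.65 and 15.80 in fasted muscle, against 12.78, 12.22 and 12.27 in AL muscle (at least 10.2-fold), and the fasted signal lay near the upper end of the scale, so that the fold is a lower bound. Ucp3 rose 4.03-fold, with 9.73, 10.27 and 10.22 in fasted muscle and 8.09, 8.12 and 7.98 in AL muscle. Eci2, a peroxisomal enoyl-CoA isomerase, read 12.52, 12.33 and 12.02 against 10.94, 11.22 and 11.38 and rose 2.16-fold.
Of 16 mitochondrial members 2 rose and 0 fell, with a median of 0.07. Acadl read 10.85, 10.25 and 10.35 in fasted muscle and 9.94, 9.62 and 10.04 in AL muscle (1.53-fold), and Slc25a20 read 13.23, 13.07 and 13.13 against 12.43, 12.58 and 12.65 (1.51-fold). Acadl lost its call without AL replicate 2 (0.49) or fasted replicate 1 (0.43). Cpt1b had 13.68, 13.58 and 13.61 in fasted muscle and 13.42, 13.66 and 13.48 in AL muscle, which overlapped (difference 0.10, standard error 0.13). Oxct1 was the member that fell, with 11.98, 12.11 and 12.22 in fasted muscle against 12.72, 12.22 and 12.44 in AL muscle (0.779 of the AL level, adjusted p = 0.078), a small change whose call was lost with median scaling (-0.17). Bdh1 had 9.94, 9.5 and 9.52 against 8.85, 9.85 and 9.71, which overlapped. The summed signal of 7 measured adipocyte markers was 42300 to 49000 in fasted muscle, against 36400 to 40100 in AL muscle, and that of the 8 skeletal muscle markers was 472000 to 483000 in fasted muscle, against 502000 to 507000 in AL muscle. Their part in these changes was not tested. On the second chip, which held 1 fasted and the 3 AL arrays, all 8 differences kept their direction.

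CR muscle had 5 of 26 members up and 13 down, where 51.6% of all genes changed (25.9% up, 25.7% down), and a median of -0.30. Acot1 read 8.79, 9.11, 8.91 and 9.05 in CR muscle, against 6.53, 7.09 and 7.22 in AL muscle (4.05-fold, adjusted p = 6.2e-06). Acot2 read 7.20, 7.78, 7.39 and 7.77 against 5.98, 6.17 and 6.63 (2.42-fold), and Pdk4 read 13.93, 14.58, 14.35 and 14.44 against 12.78, 12.22 and 12.27 (3.75-fold). Each of the 3 genes was higher on every CR array than on any AL array. Ucp3 rose 1.96-fold, with 8.93, 9.32, 8.71 and 9.18 in CR muscle and 8.09, 8.12 and 7.98 in AL muscle, and Eci2 rose 1.38-fold.
Of 16 mitochondrial members 10 fell in CR muscle and 0 rose (median -0.36). Oxct1 showed the largest fall of the set, with 11.13, 11.05, 11.14 and 11.42 in CR muscle against 12.72, 12.22 and 12.44 in AL muscle (0.412 of the AL level, log2 difference -1.28, adjusted p = 2.6e-06), and the CR arrays all lay below the AL arrays. Pex11a read 8.41, 8.96, 8.31 and 8.37 in CR muscle and 9.18, 9.19 and 9.64 in AL muscle (0.565 of the AL level). Acaa2 read 9.51, 10.49, 10.07 and 10.12 against 10.52, 10.78 and 10.76 (0.641), and Hadhb, a subunit of the trifunctional protein, read 13.28, 13.10, 13.22 and 13.08 against 13.66, 13.71 and 13.96 (0.658). The other 9 falls, which include Acadm, Acads, Acadvl, Cpt2, Crat, Decr1 and Etfdh, were between -0.57 and -0.28 on the log2 scale. The smallest was that of Cpt1b, at 13.32, 13.26, 13.29 and 13.10 in CR muscle against 13.42, 13.66 and 13.48 in AL muscle, which lost its call without single arrays. A second Crat probe had the opposite sign. Bdh1 did not pass, with 9.92, 9.74, 9.84 and 9.44 against 8.85, 9.85 and 9.71. CR muscle lay on the fourth chip and AL muscle on the second, so diet and chip were shared by no arrays of both groups, and with the chip in the model 7 members passed in place of 18. The 5 endothelial markers summed to 2060 to 2560 in CR muscle, against 3170 to 3590 in AL muscle, and the 8 skeletal muscle markers to 490000 to 496000 in CR muscle, against 502000 to 507000 in AL muscle, and what these contribute was not tested. With the log2 values as the authors normalized them, in which weak signals lie close together, Acot2 did not pass (0.09).

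FGF21-Tg muscle differed from WT in 1 of 26 members, where 0.965% of all genes changed (0.43% up, 0.535% down). Acot1 read 7.17, 8.27 and 7.90 in FGF21-Tg muscle, against 5.71, 6.44 and 5.64 in WT muscle (3.61-fold, log2 difference 1.85, standard error 0.26, adjusted p = 0.0021). All FGF21-Tg arrays lay above all WT arrays, of which 1 did not detect the gene, and all 6 arrays shared the sixth chip. With the log2 values as the authors normalized them the Acot1 difference was 0.14 and did not pass. In those values weak signals lie close together (median 9.34, lowest 9.28). Acot2 had 6.54, 6.98 and 6.61 in FGF21-Tg muscle and 6.40, 6.52 and 7.34 in WT muscle (difference -0.04, standard error 0.24), so the groups overlapped. Pdk4 had 12.99, 12.94 and 13.31 against 12.41, 12.72 and 13.17, Ucp3 had 8.62, 8.64 and 8.78 against 8.39, 8.12 and 9.3, and Oxct1 had 12.74, 12.34 and 12.44 against 12.52, 12.58 and 12.59, and none of the 3 passed. Cpt1b had 13.63, 13.40 and 13.29 against 13.53, 13.49 and 13.84. Bdh1 had 8.48, 7.68 and 8.22 in FGF21-Tg muscle and 9.23, 9.17 and 8.69 in WT muscle, without overlap but not past the test (difference -0.90, adjusted p = 0.17). The summed signal of 7 measured hepatocyte markers was 254 to 4250 in FGF21-Tg muscle, against 272 to 289 in WT muscle, and that of the 5 endothelial markers was at most 3340 in FGF21-Tg muscle, against at least 3610 in WT muscle. Their part in the Acot1 difference was not tested. Without the second and the third chip, 2 members passed (1 up, 1 down).

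Fasted adipose tissue had 9 of 29 members up and 7 down, where 27.8% of all genes changed (12.3% up, 15.5% down), and the median over members was 0.09. Pdk4 read 13.13, 13.26 and 13.69 in fasted adipose tissue, against 9.14, 9.09 and 9.61 in AL adipose tissue, a 16.9-fold rise (log2 difference 4.08, standard error 0.44, adjusted p = 2.8e-05). Acot3 read 9.46, 9.20 and 8.97 in fasted adipose tissue and was not detected on any AL array, a rise of at least 9.32-fold (adjusted p = 1.9e-05). Acot1 read 9.96, 9.68 and 10.42 against 6.80, 6.02 and 6.21 and rose 12.8-fold. In each of these genes the fasted and AL arrays were far apart. Ehhadh read 11.98, 11.32 and 12.96 in fasted adipose tissue and 9.41, 9.06 and 9.19 in AL adipose tissue (7.31-fold, adjusted p = 8.9e-05), the fasted arrays being more spread than the AL arrays. Acot4 rose 2.67-fold, with 10.23, 10.53 and 10.15 against 8.68, 8.99 and 8.99. Acaa1b rose 1.97-fold and Slc25a20 1.74-fold, and Crat and Hadhb rose less, by 0.65 and 0.55 on the log2 scale.
Of the 7 members that fell, 5 belong to mitochondrial beta-oxidation. Oxct1 read 11.02, 10.92 and 10.65 in fasted adipose tissue, against 12.28, 12.28 and 12.19 in AL adipose tissue (0.382 of the AL level, log2 difference -1.39, adjusted p = 0.00055). Decr1 read 8.92, 8.33 and 8.24 in fasted adipose tissue and 9.87, 9.86 and 9.90 in AL adipose tissue (0.383 of the AL level). Acads (-0.73), Hadh (-0.67), Acaa2 (-0.65), Acadm (-0.50) and the peroxisomal thiolase Acaa1a (-0.39) fell by less. Cpt1b had 7.58, 7.63 and 7.66 in fasted adipose tissue and 6.81, 7.26 and 7.25 in AL adipose tissue, a difference of 0.52 that did not pass, and Ucp3 had 7.65, 7.37 and 7.53 against 6.97, 7.16 and 7.72, which overlapped. All 6 arrays lay on the third chip. Skeletal muscle markers, all 8 measured, summed to 2550 to 12900 in fasted adipose tissue, against 835 to 1380 in AL adipose tissue, and 7 measured adipocyte markers summed to 140000 to 142000 against 187000 to 193000. The 5 endothelial markers summed to 11600 to 14300 in fasted adipose tissue, against 7020 to 7790 in AL adipose tissue, and the 3 measured erythroid markers to 62200 to 69600 in fasted adipose tissue, against 48800 to 62000 in AL adipose tissue. Their part in the member changes was not tested.

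CR adipose tissue had 18 of 29 members up and 1 down, where 47.6% of all genes changed (22.4% up, 25.1% down), and a median of 0.71 against -0.01 over all genes. Acot1 read 12.42, 12.24, 12.42 and 12.36 in CR adipose tissue, against 6.80, 6.02 and 6.21 in AL adipose tissue, a 64.7-fold rise (log2 difference 6.02, standard error 0.62, adjusted p = 4.3e-06). Acot3 read 10.75, 11.15, 11.16 and 11.29 in CR adipose tissue, at least 34.2-fold above AL adipose tissue, where it was not detected. Ehhadh read 12.70, 12.94, 13.11 and 12.94 against 9.41, 9.06 and 9.19 and rose 13-fold (adjusted p = 1.4e-06). These were the largest member changes in CR mice of any tissue, and the CR arrays of each gene lay close together. Pdk4 rose 4.70-fold, with 11.62, 11.89, 11.18 and 11.36 in CR adipose tissue and 9.14, 9.09 and 9.61 in AL adipose tissue. Acot4 (2.35-fold; 9.88, 10.29, 10.18 and 10.13 against 8.68, 8.99 and 8.99) rose too, as did Acot2 (2.25-fold), another detected probe of which had the opposite sign.
Of 16 mitochondrial members 10 rose and 0 fell (median 0.79). Cpt1b read 8.66, 9.62, 8.52 and 8.55 in CR adipose tissue, against 6.81, 7.26 and 7.25 in AL adipose tissue (3.32-fold, adjusted p = 0.019). Acadl read 11.04, 11.06, 11.13 and 10.84 in CR adipose tissue and 9.57, 10.08 and 9.80 in AL adipose tissue (2.30-fold), and Acaa2 rose 2.03-fold. Rises between 0.41 and 0.97 on the log2 scale were those of Slc25a20, Crat, Acadvl, Etfdh, Eci1, Hadhb and Acadm. Oxct1 was the only member that fell, with 10.91, 10.61, 10.68 and 10.37 in CR adipose tissue against 12.28, 12.28 and 12.19 in AL adipose tissue (0.327 of the AL level, adjusted p = 3.1e-05). Ucp3 did not pass, with 7.66, 6.61, 6.95 and 7.02 against 6.97, 7.16 and 7.72.
Markers of cell types moved in the same arrays. The summed signal of the 2 of 3 listed brown adipocyte markers that were measured, Cidea and Elovl3, was 6190 to 8980 in CR adipose tissue, against 91.8 to 149 in AL adipose tissue. The 7 measured adipocyte markers summed to 132000 to 135000 in CR and 187000 to 193000 in AL adipose tissue, and 3 measured macrophage markers summed to 3560 to 4270 in CR and 5640 to 8510 in AL adipose tissue. The 5 endothelial markers summed to 4950 to 6500 in CR and 7020 to 7790 in AL adipose tissue, and the 8 skeletal muscle markers to 371 to 735 in CR and 835 to 1380 in AL adipose tissue. Their part in the member changes was not tested. All CR adipose arrays lay on the second chip and all AL adipose arrays on the third, so diet and chip cannot be told apart.

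In FGF21-Tg adipose tissue 5 of 29 members rose and 0 fell, where 7.79% of all genes changed (4.34% up, 3.45% down), and all 4 thioesterases were among them. Acot1 read 10.39, 10.50 and 10.54 in FGF21-Tg adipose tissue, against 9.67, 6.58 and 5.86 in WT adipose tissue (8.62-fold, log2 difference 3.11, standard error 0.66, adjusted p = 0.022). The FGF21-Tg arrays lay close together, while 1 WT array was far above the other 2 and still below all FGF21-Tg arrays. Acot2 read 8.08, 8.63 and 8.34 in FGF21-Tg adipose tissue and 6.25, 6.98 and 7.0 in WT adipose tissue (3.03-fold, adjusted p = 0.0024). Acot4 read 8.97, 10.19 and 9.87 against 8.27, 8.38 and 8.41 (2.5-fold), and Acot3 read 6.04, 7.44 and 7.84 against 5.09, 6.08 and 5.18 (3.15-fold, adjusted p = 0.035), where 1 FGF21-Tg array lay within the WT range and 2 WT arrays did not detect the gene. Acadvl read 12.50, 12.24 and 12.72 in FGF21-Tg adipose tissue and 11.75, 12.11 and 12.11 in WT adipose tissue (1.41-fold, adjusted p = 0.083). Without WT replicate 3 or FGF21-Tg replicate 3 the count was 3, and Acot3 and Acadvl lost their calls without some arrays.
Ehhadh, which fasting and CR raised in this tissue, had 8.5, 8.66 and 9.11 in FGF21-Tg adipose tissue and 8.05, 8.99 and 9.24 in WT adipose tissue (difference 0.00, standard error 0.36). Pdk4 had 10.21, 10.45 and 11.34 against 8.88, 10.55 and 10.99, Oxct1 had 12.50, 12.12 and 12.00 against 11.66, 12.65 and 12.20, and the groups overlapped in both. Cpt1b had 7.55, 7.18 and 9.40 against 8.69, 6.52 and 6.69, and Ucp3 had 6.69, 6.89 and 6.63 against 6.11, 7.86 and 7.83. The 2 measured brown adipocyte markers summed to 242 to 1010 in FGF21-Tg and 100 to 174 in WT adipose tissue, and the 2 of 4 listed epididymis markers that were measured summed to 157 to 18800 in FGF21-Tg and 76.2 to 394 in WT adipose tissue. The 7 measured adipocyte markers summed to 158000 to 174000 in FGF21-Tg and 179000 to 185000 in WT adipose tissue, and the 5 endothelial markers to 4110 to 5780 in FGF21-Tg and 6820 to 7870 in WT adipose tissue. Their part in the thioesterase changes was not tested. The WT arrays and 1 FGF21-Tg array shared the fifth chip, where the differences were 3.02 for Acot1, 1.34 for Acot2, 0.59 for Acot3, 0.62 for Acot4 and 0.51 for Acadvl, and 1 member passed with the chip in the model. With the log2 values as the authors normalized them, in which weak signals lie close together, Acot3 did not pass (0.05). Fitted without the second and the third chip, which leaves 6 adipose arrays, 0 members passed, although the differences stayed at 3.03, 1.56, 1.72, 1.27 and 0.49 for the same genes.

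**Figure D2:**
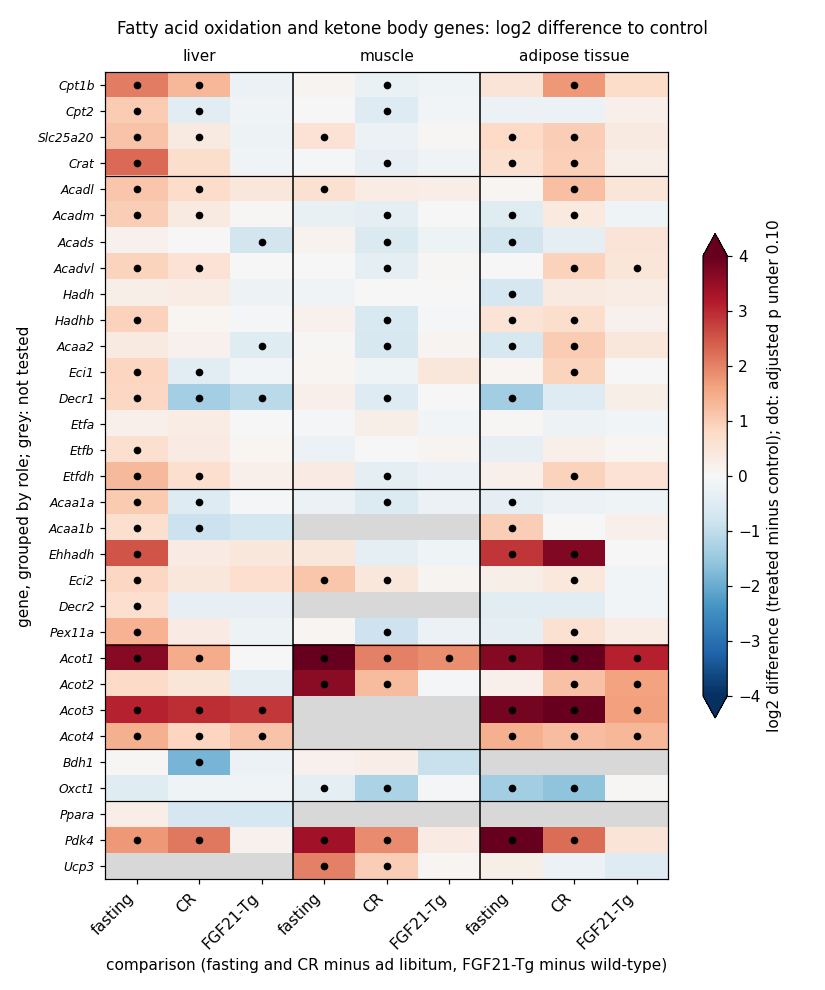
Log2 difference of each tested gene (rows, grouped by role) in fasted, CR and FGF21-Tg mice against their controls in each tissue (columns), from blue (lower) to red (higher). Dots mark an adjusted p under 0.10 and grey cells genes not tested. Fasting raised 22 of 30 genes in liver, and Acot1 and Pdk4 rose with fasting and CR in all 3 tissues.

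**Figure D3:**
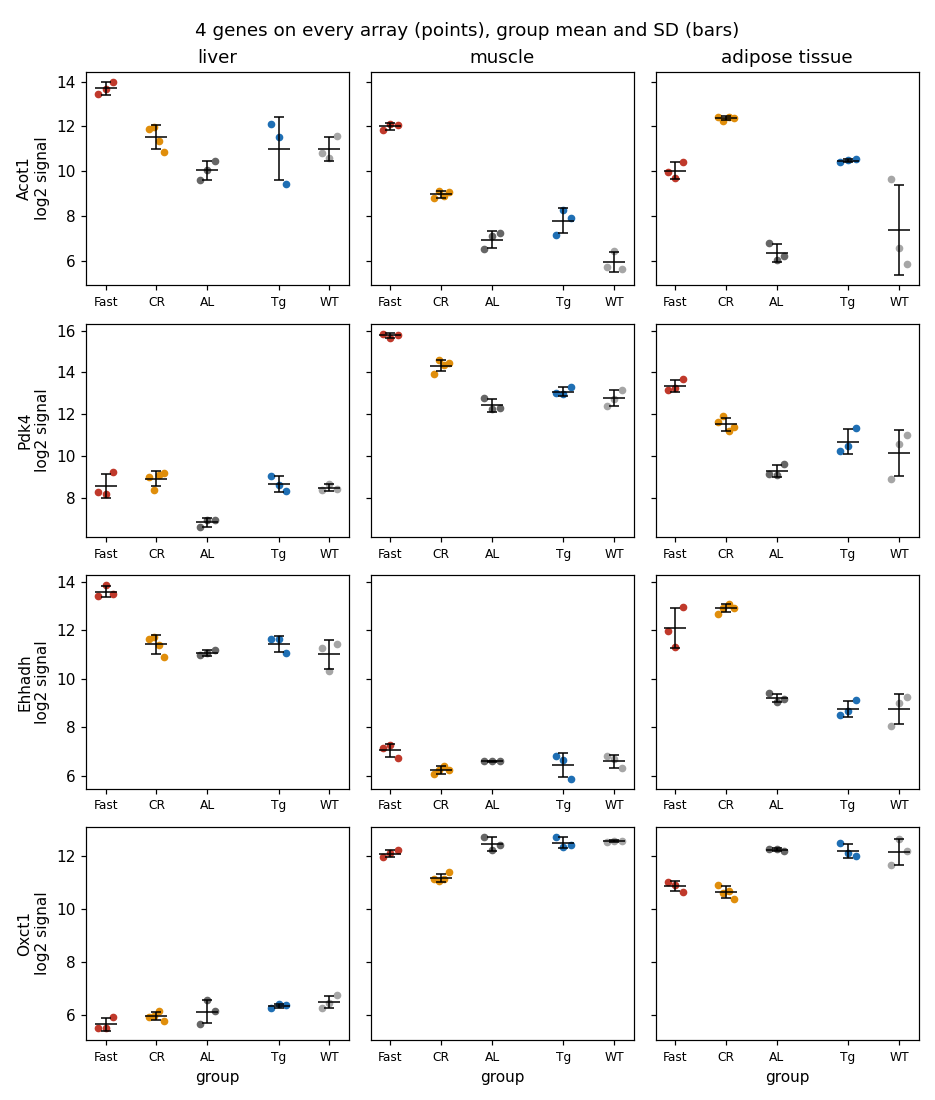
Log2 signal of Acot1, Pdk4, Ehhadh and Oxct1 on every array (points) in the 5 groups of each tissue, normalized within the tissue, with the mean and SD of the group (bars). Oxct1 lay lower in fasted and CR than in AL adipose tissue, and Pdk4 in fasted muscle lay near the upper end of the scale.

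Fasted and CR mice were also set against each other, a comparison that uses no AL array. In liver 18 of 30 members were higher in fasted mice and 0 lower, where 24.9% of all genes differed (12.4% higher, 12.5% lower). Decr1 was 4.57-fold higher in fasted than in CR liver, Ehhadh 4.55-fold, Acot1 4.53-fold and Bdh1 3.67-fold, each with every fasted array above every CR array. Ppara, a weak signal, was higher as well (1.93-fold, adjusted p = 0.046). On the first chip alone, with 3 fasted and 2 CR arrays, its log2 difference was 0.69, and its lowest CR value (6.07) lay on the third chip. Pdk4 (-0.36) and Acot3 (0.12) did not pass. In muscle, again, 18 of 26 members were higher in fasted mice and 0 lower (42% of all genes differed, 20.7% higher and 21.3% lower). Acot1 was 8.16-fold and Acot2 5.01-fold higher in fasted than in CR muscle, and Ucp3 was 2.05-fold higher. Pdk4 was at least 2.71-fold higher, a lower bound because its signal in fasted muscle lay near the upper end of the scale, and 9 of 16 mitochondrial members were higher by up to 0.83 (Slc25a20) on the log2 scale. Adipose tissue went the other way, with 2 of 29 members higher and 14 lower in fasted mice (40.1% of all genes differed, 20.6% higher and 19.5% lower). Pdk4 (3.60-fold) and Acaa1b (1.97-fold) were higher, whereas Acot1 was lower (0.197 of the CR level), as were Acot3 (0.272), Acaa2 (0.313) and Acadl (0.463). Of 16 mitochondrial members 9 were lower in fasted than in CR adipose tissue and 0 higher. CR adipose tissue lay on a chip that held no other adipose group, so in this tissue chip and group cannot be told apart. On the fourth chip, with 2 fasted and 4 CR muscle arrays, all 18 muscle differences kept their direction. Without the second and the third chip 16 members passed in liver and 18 in muscle, and the adipose comparison cannot be made.

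The effect of fasting was compared between tissues in 1 model over the 48 arrays. With its sign kept, it was higher in liver than in muscle for 15 of 31 members and lower for 3. Of all 11772 genes 22% differed (11.1% up, 10.8% down). Crat led the detected members (difference between effects 2.27, standard error 0.36, adjusted p = 1.1e-05), with 9.55, 10.14 and 9.81 in fasted and 7.61, 7.83 and 7.5 in AL liver beside 12.09, 11.72 and 11.90 in fasted and 12.25, 11.91 and 11.82 in AL muscle on the common scale. Cpt1b (1.93), Ehhadh (1.85), Acadm (1.20) and Acaa1a (1.20) also responded more in liver, and Ucp3 (-1.72), Pdk4 (-1.52) and Acot2 (-1.34) more in muscle. Acot3 (2.97) was below detection on 3 of 3 fasted muscle arrays, so its effect there is not a measured one, and the same holds for Ucp3 in liver. The Pdk4 effect in muscle is a lower bound, with a fasted signal near the upper end of the scale. Against adipose tissue, the effect was higher in liver for 18 members and lower for 1 (17% of all genes differed, 8.96% up and 8.02% down). It was higher in liver for Decr1 (2.26), Acot2 (2.04), Pex11a (1.68) and Acadm (1.49), and in adipose tissue for Pdk4 (-2.82). A higher effect is not always a stronger response. Decr1 rose in liver (0.83) and fell by more in adipose tissue (-1.38), each normalized within the tissue. The Acot2 probe used here was not detected in AL liver, so neither difference of Acot2 with liver is an exact one. Between muscle and adipose tissue the effect was higher in muscle for 7 members and lower for 4 (18.7% of all genes differed, 9.85% up and 8.86% down). It was higher in muscle for Acot2 (3.37) and Ucp3 (1.75), and in adipose tissue for Ehhadh (-2.71). The other 3 called as lower in muscle were not measured on both sides. Acot3 (-3.51) was below detection on 3 of 3 fasted muscle arrays, Acot4 (-1.45) was not detected on any control muscle array, and for Pdk4 (-1.31) the bound on its muscle effect leaves the direction unsettled.

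The mitochondrial, peroxisomal and thioesterase subsets were counted by tissue. With fasting, 8.44% of all genes rose in liver, 19.7% in muscle and 12.3% in adipose tissue. Of 16 mitochondrial members 12 rose in liver, 2 rose in muscle, which is no more than the share of all genes, and in adipose tissue 3 rose and 5 fell, where 15.5% of all genes fell. The difference between the fasting effects was past the test for 10 of 16 mitochondrial members in liver against muscle and 13 of 16 in liver against adipose tissue. With their sign kept, all these effects were higher in liver, with median differences of 0.67 and 0.94. Against adipose tissue they include members that fell there. Peroxisomal members rose with fasting in 6 of 6 cases in liver, 1 of 4 cases in muscle and 2 of 6 cases in adipose tissue, with medians of 0.93, 0.27 and -0.06. Thioesterases rose in 3 of 4, 2 of 2 and 3 of 4 cases, with medians of 2.25, 4.32 and 2.55 (2.32 with Acot3 at its bound in adipose tissue). With CR 17.6% of all genes rose and 17.9% fell in liver, 25.9% and 25.7% in muscle, and 22.4% and 25.1% in adipose tissue. The mitochondrial subset had 6 up and 3 down in liver, 0 up and 10 down in muscle, and 10 up and 0 down in adipose tissue, with medians of 0.31, -0.36 and 0.79. The peroxisomal subset had 0 up and 2 down in liver, 1 up and 2 down in muscle and 3 up and 0 down in adipose tissue, and the thioesterases rose in 3 of 4, 2 of 2 and 4 of 4 cases, with medians of 1.17, 1.65 and 3.47 (3.16 at the bound). In FGF21-Tg mice 2 of 4 thioesterases rose in liver, 1 of 2 tested rose in muscle and all 4 rose in adipose tissue, against 0 of 6, 0 of 4 and 0 of 6 peroxisomal members and 3.27%, 0.43% and 4.34% of all genes. Mitochondrial members had 0 up and 3 down in FGF21-Tg liver, 0 and 0 in muscle, and 1 up and 0 down in adipose tissue. Thioesterases were thus the 1 subset with members up in all 9 comparisons with controls, and no member of the subset fell in any of them. The FGF21-Tg calls depended on the processing. None held in liver with the chip in the model or in adipose tissue without the second and the third chip. That of muscle was lost with the log2 values as the authors normalized them, whose median (9.34) lies close to their lowest value (9.28). In CR adipose tissue diet and chip cannot be told apart. The 4 genes share a locus and sequence and are not independent of each other.

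**Figure D4:**
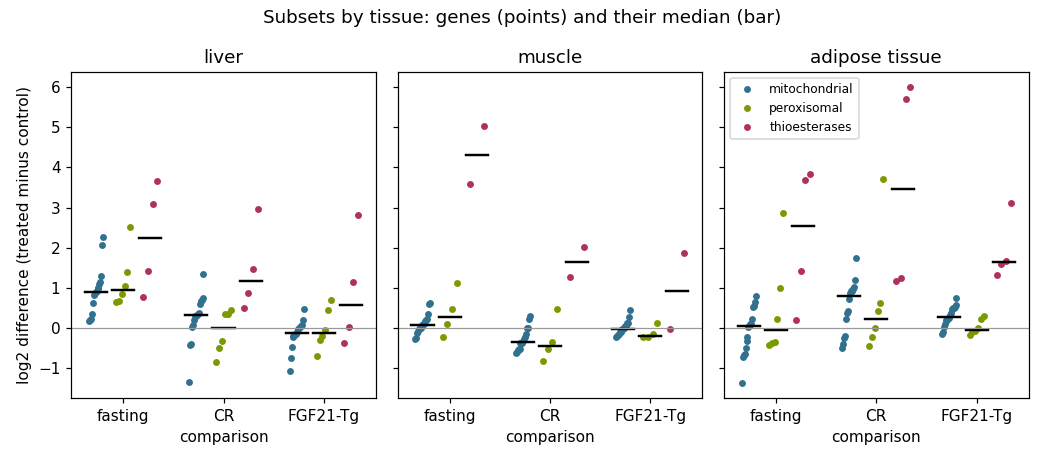
Log2 difference to control of each gene (points) and the median (bar) of the mitochondrial, peroxisomal and thioesterase subsets, by tissue and comparison. The thioesterase median was 2.25, 4.32 and 2.55 with fasting in liver, muscle and adipose tissue, and the mitochondrial median was 0.90, 0.07 and 0.04.

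Other genes of the pathway that are not members were counted for context. Of 35 tested in liver 14 rose and 5 fell with fasting (all genes, 8.44% up and 9.7% down). In muscle 8 of 34 rose and 10 fell (19.7% up and 21.4% down), counts close to those shares, and in adipose tissue 13 of 36 rose and 5 fell (12.3% up and 15.5% down). In liver the largest were Acat1, a mitochondrial thiolase used in ketone body synthesis (2.68), Plin5, a lipid droplet protein of oxidative tissues (2.57), Fgf21 (2.42) and Angptl4, a secreted inhibitor of lipoprotein lipase (2.32). In muscle Angptl4 (3.68) and Plin5 (2.21) rose and the coactivator Ppargc1b fell (-2.53), and in adipose tissue the fatty acid transporter Slc27a1 rose (2.64). With CR 6 rose and 11 fell in liver (17.6% and 17.9% of all genes), 7 rose and 14 fell in muscle (25.9% and 25.7%), and 13 rose and 4 fell in adipose tissue (22.4% and 25.1%). The coactivator Ppargc1a, which partners PPARalpha, led in CR liver (3.25) and CR adipose tissue (3.32), and Acat1 (2.16) and Angptl4 (2.13) in CR muscle. In FGF21-Tg mice 2 rose and 1 fell in liver (all genes, 3.27% up and 2.36% down). In muscle 1 rose, which was Fgf21 (0.43% of all genes up), and in adipose tissue 5 rose (4.34% up). Fgf21 is the transgene, so its rise in these mice is set by the design. Ppargc1a rose in FGF21-Tg liver (1.31) and adipose tissue (1.25), and Bdh2 fell in FGF21-Tg liver (-0.86).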

How the data were processed

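RNA of 48 tissue samples was hybridised to Illumina BeadChips. The authors deposited probe intensity without normalization and a detection p-value for each probe, read in BeadStudio (version not given in the sources used here), and a table of log2 values that the authors background-corrected and quantile-normalized. The median of those log2 values was 9.34 and the lowest 9.28, so weak signals lie close together in them and differences of weak genes are hard to see. Intensities were background-corrected from the detection p-value (normexp, offset 16), quantile-normalized within a tissue or over all arrays, and put on the log2 scale. A gene was read from its brightest probe detected (p under 0.05) on at least 3 arrays. Groups were compared with limma 3.58.1 in R 4.3.3 over all genes, with Benjamini-Hochberg adjustment, where the study's methods name SAM. A probe not detected in a group gives only a bound, written "at least". The scripts were tested on simulated data. Replicate arrays of a group correlated at 0.903 to 0.9927. The labels call them biological replicates, and technical spread cannot be separated from the spread between mice.

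The members and lists were chosen with earlier results of these data known. Any member may be named. Values per array are given for Cpt1b, Pdk4, Ucp3, Ppara, Bdh1 and Oxct1 and for up to 8 called members per comparison with the largest change. Other pathway and marker genes are named up to 4 per comparison by the same order. The alternatives were other labels, background correction, scaling, probe choice, filters, blocks and leaving out arrays. Depth does not apply to arrays, whose number limits the precision.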

Additional observations from a re-analysis of the deposited data

Results flagged for a closer look

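In 85 member and tissue groups of 4 CR arrays, 8 held 1 array far from the other 3 by Dixon's test, which chance gives in about 1 in 20 groups. In CR liver these were replicate 3 for Acadm (14.41, with the others at 14.51 to 14.53) and replicate 4 for Bdh1 (9.41, with the others at 10.24 to 10.27). In CR muscle they were replicate 4 for Eci1 (12.39, others 12.06 to 12.12) and Decr1 (8.84, others 9.18 to 9.19), replicate 1 for Etfdh (10.41, others 10.85 to 10.93) and replicate 2 for Pex11a (8.96, others 8.31 to 8.41). In CR adipose tissue they were replicate 2 for Cpt1b (9.62, others 8.52 to 8.66) and replicate 4 for Cpt2 (12.28, others 12.49 to 12.53).

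The effect of fasting differed between tissues by the interaction test, for 18 members between liver and muscle, 19 between liver and adipose tissue and 11 between muscle and adipose tissue. Among genes detected in both tissues the largest log2 differences were those of Crat (2.27), Cpt1b (1.93) and Ehhadh (1.85) between liver and muscle, Pdk4 (-2.82), Decr1 (2.26) and Pex11a (1.68) between liver and adipose tissue, and Acot2 (3.37), Ehhadh (-2.71) and Ucp3 (1.75) between muscle and adipose tissue. Differences that rest on a group without detection are not exact. They were those of Acot3 between liver and muscle (2.97) and between muscle and adipose tissue (-3.51), where fasted muscle did not detect it, and that of Acot2 between liver and adipose tissue (2.04), where AL liver did not.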

How the results depend on the processing

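The alternatives were followed for up to 8 called members per comparison with controls, those with the largest change, and for Cpt1b, Pdk4, Ucp3, Bdh1 and Oxct1 where called. Fewer were followed in the other comparisons, and other genes in the text were not. For these named values direction turned only with the labels as deposited, where 22 of 100 turned. Those labels gave 14 called members for fasted liver (22 with the exchange), 1 for FGF21-Tg liver (5), 6 for fasting against the transgene (19), 17 for fasted muscle (8), 0 for FGF21-Tg muscle (1), 8 for fasted against CR muscle (18), 2 for fasted (16), 4 for CR (19) and 0 for FGF21-Tg adipose tissue (5). The fasting effect then differed for 5 members between liver and muscle (18), 10 between liver and adipose tissue (19) and 0 between muscle and adipose tissue (11), and control levels of muscle and adipose tissue for 0 (28). Values that turned were Oxct1 in fasted (0.50) and CR muscle (0.22), Acaa2 (1.01) and Cpt1b (6.40) in CR muscle, Acot3 (-3.15), Acot1 (-1.44), Ehhadh (-3.71), Acot4 (-3.20), Oxct1 (1.21), Decr1 (0.99) and Acaa1b (-4.17) in fasted adipose tissue, Acot1 (-1.75), Acot3 (-1.02), Ehhadh (-0.82), Pdk4 (-2.48), Cpt1b (-2.36) and Acadl (-0.59) in CR adipose tissue, and Acot1 (0.31) in fasted against CR adipose tissue. The fasting effect turned for Cpt1b (-2.52) between liver and muscle, Decr1 (-0.25) between liver and adipose tissue, and Acot3 (1.90) and Ehhadh (2.49) between muscle and adipose tissue.

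Without background correction 8 members passed in FGF21-Tg liver and 2 in FGF21-Tg muscle, where the deposited log2 values gave 0. With the chip as a block 0 passed in FGF21-Tg liver, 7 in CR muscle and 1 in FGF21-Tg adipose tissue, and 65 of 80 named values kept their call. That block could not be fitted for CR against AL or fasted against CR adipose tissue, or for control levels of muscle against the other tissues. Without the second and the third chip 2 passed in FGF21-Tg muscle and 0 in FGF21-Tg adipose tissue. Leaving out 1 array gave 1 to 3 in FGF21-Tg muscle (3 without FGF21-Tg replicate 1) and 3 to 7 in FGF21-Tg adipose tissue (7 without WT replicate 2), and 782 named values kept their call while 23 lost it. The cause of these changes was not tested. Same-numbered arrays deviated together by -0.05 to 0.20 (correlation), so the numbers were not taken as pairs. With the replicate block the counts were 23, 16 and 4 in fasted, CR and FGF21-Tg liver, 9, 16 and 1 in muscle and 15, 19 and 4 in adipose tissue.

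With median scaling, higher calls among all genes were 33.1% in place of 46.5% in fasted liver, 71.1% in place of 58.1% in FGF21-Tg liver, 59.2% in place of 47.8% in fasted muscle, 61.7% in place of 44.6% in FGF21-Tg muscle and 73.6% in place of 55.7% in FGF21-Tg adipose tissue. For fasted against CR liver, where the median of all genes moved to -0.156, the share was 26% in place of 49.9%, and for fasting against the transgene, with a median of -0.174, 21.9% in place of 44.4%. For the fasting effect it was 29.4% in place of 50.6% between liver and muscle, and 67.1% in place of 52.6% between muscle and adipose tissue. The number of arrays, the signal near both ends of the scale and the shared chips limit these comparisons.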
